A study of Mus musculus with 6 samples.

Results

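NRF2, encoded by Nfe2l2, is the transcription factor that switches on the antioxidant and detoxification genes of a cell. In resting cells KEAP1 binds NRF2 and hands it to the CUL3 ubiquitin ligase for degradation, and oxidants or electrophiles that modify cysteines of KEAP1 let newly made NRF2 reach the nucleus. There it pairs with a small MAF protein on antioxidant response elements near genes for glutathione synthesis, the thioredoxin system, NADPH-dependent quinone reduction and heme breakdown. In liver this system is known for handling drugs, bile acids and lipid peroxides. NRF2 itself is regulated largely at the protein level, so its mRNA level is not a measure of its activity.

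The report covers 10 such genes: Nfe2l2, Keap1, Nqo1, Gclc, Gclm, Txnrd1, Srxn1, Hmox1, Gsr and Slc7a11. The rule lists them by name and sets no threshold on their values, and they were matched by GENCODE M21 symbol to 10 of the 54532 mouse genes that carry an Ensembl identifier in the count table. A value could be tested for 9 of them, among 12795 genes with enough counts; Slc7a11 had too few.

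The libraries come from livers of wild-type (WT) male C57BL/6J mice, 8 weeks old at entry. The HFD group (replicates 1 to 3) received a high-fat diet for 4 weeks and then for a further 4 weeks. The HFD+allantoin group (replicates 4 to 6) received the same diet, with allantoin, an oxidation product of uric acid, in the drinking water during the further 4 weeks. The labels name concentrations of 0.06 and 0.3 mg/mL without tying either to a library, and the methods of the study place the sequenced animals at 0.3 mg/mL. All 6 libraries thus come from mice on the high-fat diet, and a group on normal chow was not analysed here. The labels do not say that each library came from a separate mouse. The tests set group differences against variation between libraries, and their p-values need not extend to mice.

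The libraries held 11326372 to 14601457 counts. Mitochondrially encoded transcripts made up 17.9% to 36.5% of each HFD library but 6.92% to 11.4% of each HFD+allantoin library, and the TMM scaling factors ran from 0.756 to 0.951 and from 1.12 to 1.19, respectively. This difference coincided with the groups in every library. With the mitochondrial chromosome left out of the edgeR fit, 0 of the 9 tested genes were called. The log2 fold changes were then -0.70 for Nfe2l2 and -0.85 for Gclc. Any other part of the difference in the results was not tested. The hepatocyte markers were abundant throughout, with summed levels of 110373 to 113908 CPM (read counts scaled to a common library size with the TMM factors) in HFD and 86889 to 115194 CPM in HFD+allantoin (log2 ratio of means -0.19, two-sided exact permutation p = 0.4). Alb made up most of this sum. Of the 12 markers, 10 had a negative log2 fold change, with a median of -0.52; 3 were called lower (Apoa1 -1.23, Apoa2 -1.03 and Ttr -0.79) and 1 higher (Cps1, 1.05). The HFD replicate 3 library stood apart from the others on the second principal component, at -37.1 where the other 5 libraries lay between -8.02 and 14.5. Results that rest on it are given with and without it. HFD replicate 2 alone held adipose transcripts, with 51.4 CPM of Adipoq against at most 0.0733 CPM elsewhere, and values without this library are given beside the calls of named genes that were lost or gained without it.

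The antioxidant response element has the core TGACNNNGC, where N is any base. The core was searched on both strands of the RefSeq promoters (GRCm38.p6), each 250 bases before to 50 bases after a gene's start. Promoters were found for 7 of the 10 genes, among them 3 alternative starts of Txnrd1. Gclc, Hmox1 and Gsr had none in the table. The core lay in 4 of the 9 promoters of these 7 genes, each of a different gene, and in 12.4% of all 32851 promoters of that length. The matches are shown because they put the genes whose values differ most between libraries, Nfe2l2 and Srxn1, beside Gclm and Txnrd1, whose values differ little. Each is printed 5′ to 3′ on the strand of the gene with 10 bases on both sides, and capitals mark the 9 bases that match.
Nfe2l2: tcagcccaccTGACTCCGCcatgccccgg
Srxn1: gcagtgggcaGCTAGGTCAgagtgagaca
Gclm: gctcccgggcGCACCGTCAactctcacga
Txnrd1: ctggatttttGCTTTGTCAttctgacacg

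The Nfe2l2 match lies at chr2:75704885-75704913 on the minus strand, reads in the direction of the gene and begins at base -240 from the start. The other matches read on the opposite strand to the gene. That of Srxn1 lies at chr2:152105542-152105570 and begins at base 29 after the start, that of Gclm at chr3:122245413-122245441 and begins at base -134, and that of Txnrd1 at chr10:82859104-82859132 and begins at base -92 of 1 of its 3 starts. Keap1, Nqo1 and Slc7a11 had a promoter in the table and no match in this window. The stricter form TGACTCAGC, every copy of which also matches the core, was in none of the 7 genes and in 0.454% of all promoters. A match is a sequence description and does not show binding.

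None of the 9 tested genes differed between the groups at an adjusted p under 0.05. The edgeR quasi-likelihood test called 0 of 9 higher and 0 of 9 lower in HFD+allantoin, whereas over all 12795 genes it called 11.3% higher and 13.0% lower (24.3% in either direction). At an unadjusted p under 0.05, 1 of the 9 (Gclc) passed, beside 39.1% of all genes. DESeq2, which gave no p for Srxn1, called 1 of the other 8, again Gclc, beside 29.1% of the genes to which it gave an adjusted p, and limma-voom called 0 of 9 beside 24.4%. Other settings of the edgeR fit called 1 of 9 with length and GC trends removed (Gclm, beside 23.3% of all genes), 1 without HFD replicate 2 (Gclc, 22.3%), 0 without HFD replicate 3 (28.6%), 2 with scaling by library size only (Keap1 and Txnrd1, 30.0%) and 3 without a filter on low counts (Nfe2l2, Gclc and Srxn1, 16.7%). Without the filter the SE of Srxn1 was 0.22, where the main fit gave 0.84, so its spread between libraries counted for little. The 2 groups did not overlap in 1 of the 9 genes (Gclm, lower in HFD+allantoin), whereas they did not overlap in 44.3% of all genes, 22.4% higher and 21.9% lower. The median log2 fold change was 0.10 over the 9 genes and -0.030 over all genes, with 5 positive and 4 negative values among the 9.

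**Figure D1:**
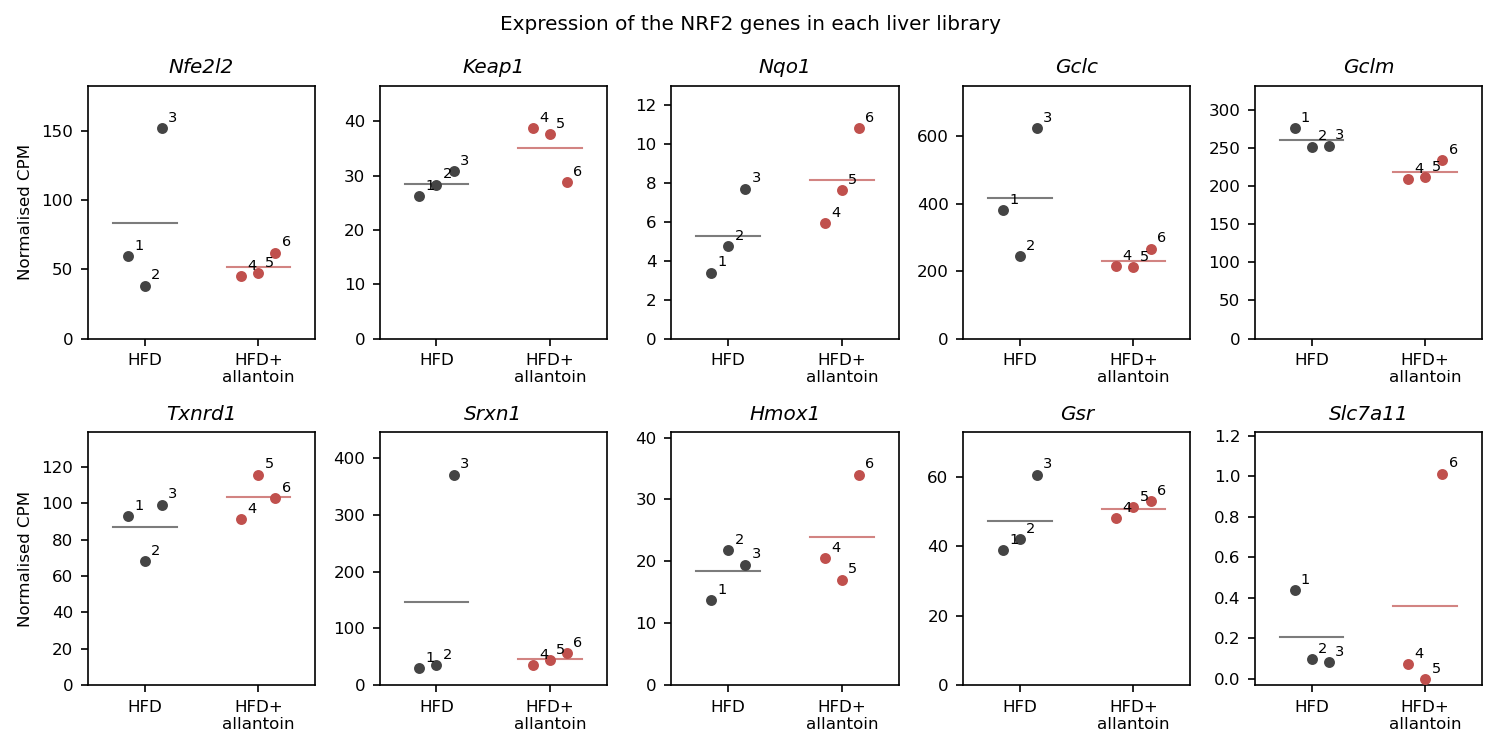
Normalised CPM of the 10 genes (y axis, starting at 0 or, for Slc7a11, just below it, with a different range for each gene) in the HFD libraries (grey) and the HFD+allantoin libraries (red), each point 1 library with its replicate number and each line the group mean. HFD replicate 3 lies far above the other libraries for Srxn1 (371 CPM) and Nfe2l2 (152 CPM), and Gclm is the gene whose groups do not overlap.

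Nfe2l2 (ENSMUSG00000015839, chr2:75675513-75704641, minus strand) encodes NRF2. Its level was 59.6, 38.2 and 152 CPM in HFD replicates 1 to 3 and 45.2, 47.0 and 62.0 CPM in HFD+allantoin replicates 4 to 6. HFD replicate 3 was the highest library and HFD replicate 2 the lowest, so that the allantoin libraries lay inside the range of the HFD group. The means were 83.2 ± 60.4 CPM in HFD and 51.4 ± 9.25 CPM in HFD+allantoin (SD, n = 3 each). The log2 fold change was -0.70 (SE 0.43, 95% interval -1.68 to 0.28, edgeR adjusted p = 0.27). Without HFD replicate 3 it was 0.076 (interval -0.46 to 0.61, adjusted p = 0.83), so that the sign of the difference came from that library.

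Keap1 (ENSMUSG00000003308, chr9:21229730-21239361, minus strand) encodes the repressor that marks NRF2 for degradation. HFD livers held 26.2, 28.3 and 30.8 CPM and HFD+allantoin livers 38.8, 37.6 and 28.9 CPM. Replicates 4 and 5 were above every HFD library, and replicate 6 was within the HFD range. Keap1 had a log2 fold change of 0.30 (SE 0.17, interval -0.089 to 0.69, edgeR adjusted p = 0.23). An antisense gene, Gm16754, overlaps 10.9% of the Keap1 exons, and it was not stated whether counting used the strand, so reads of the 2 genes cannot be told apart there.

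The ratio of Nfe2l2 to Keap1 within a library does not depend on scaling between libraries. It was 2.28, 1.35 and 4.92 in HFD and 1.16, 1.25 and 2.15 in HFD+allantoin. The HFD group held the highest 2 ratios (replicates 3 and 1), and its lowest was below that of replicate 6. The mean log2 ratio was 0.76 lower in HFD+allantoin, as a difference of -0.76 (two-sided exact permutation p = 0.2, adjusted over the 2 ratios tested 0.4, smallest p possible 0.1). Without HFD replicate 3 the difference was -0.26.

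Gclc and Gclm encode the catalytic and the modifier subunit of glutamate-cysteine ligase, the rate-limiting enzyme of glutathione synthesis. Gclc (ENSMUSG00000032350, chr9:77754535-77794485, plus strand) was at 380.4, 245 and 624 CPM in HFD and at 214, 212 and 266 CPM in HFD+allantoin. HFD replicates 1 and 3 were above all 3 allantoin libraries, while HFD replicate 2 lay below replicate 6. The means were 416 ± 192 and 231 ± 30.9 CPM (SD, n = 3 each).

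Gclc had the smallest p of the 9 genes. Its log2 fold change was -0.85 (SE 0.31, interval -1.55 to -0.16), with an unadjusted p = 0.021 and an adjusted p = 0.072 by edgeR. DESeq2 gave -0.85 with an adjusted p = 0.025, and limma-voom -0.75 with an adjusted p = 0.094. The value depended on single libraries: it was -1.12 (edgeR adjusted p = 0.019) without HFD replicate 2 and -0.43 (adjusted p = 0.17) without HFD replicate 3.

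Gclm (ENSMUSG00000028124, chr3:122245557-122270732, plus strand) was at 277, 252 and 254 CPM in HFD and at 209, 212 and 235 CPM in HFD+allantoin. All 3 HFD libraries were above all 3 allantoin libraries, by a small margin next to the level. Its log2 fold change was -0.25 (SE 0.15, interval -0.59 to 0.086, edgeR adjusted p = 0.24). Once each library's trend with transcript length and GC content was removed it was -0.50 (adjusted p = 0.034), whereas scaling by library size alone gave 0.17, so both the call and the sign of Gclm turned on the scaling. That scaling moved the median of all genes up by 0.41, and relative to this median Gclm remained lower. The exons of Gclm overlap Gm17494 on the opposite strand (4.71% of their length) and Gm6061 on the same strand (3.88%).

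The ratio of Gclc to Gclm was 1.37, 0.969 and 2.46 in HFD and 1.02, 0.997 and 1.13 in HFD+allantoin. The allantoin libraries lay within 0.997 to 1.13, inside the much wider range of the HFD libraries. The mean log2 ratio differed by -0.50 (exact permutation p = 0.4, adjusted 0.4), and by -0.14 without HFD replicate 3.

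**Figure D2:**
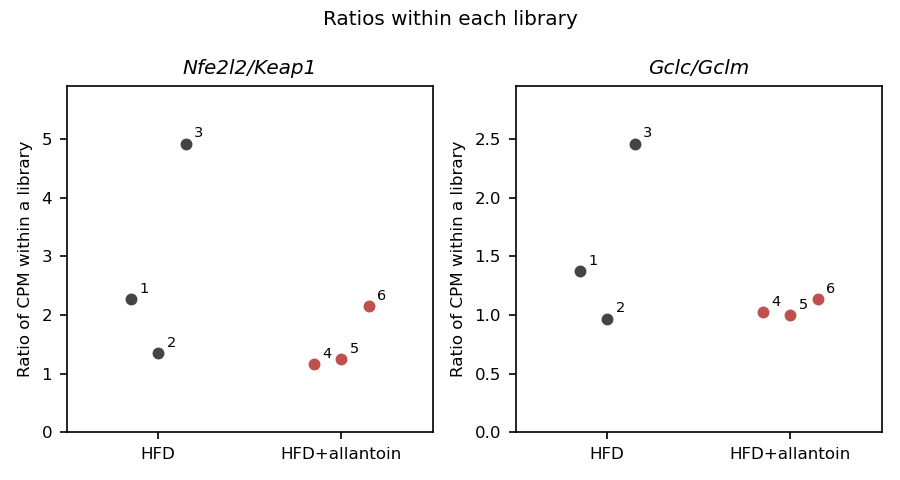
Ratio of Nfe2l2 to Keap1 (left) and of Gclc to Gclm (right) within each library (y axis, ratio of CPM, starting at 0), 1 numbered point per library. HFD replicate 3 has the highest value of both ratios, 4.92 and 2.46, and the HFD and HFD+allantoin points overlap in both.

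Gsr (ENSMUSG00000031584, chr8:33652523-33698163, plus strand) encodes glutathione reductase, which returns oxidised glutathione to its reduced form with NADPH. Its level was 38.9, 42.1 and 60.6 CPM in HFD and 48.0, 51.2 and 53.0 CPM in HFD+allantoin. The allantoin libraries lay between the HFD libraries, with HFD replicate 3 the highest. The log2 fold change was 0.10 (SE 0.19, interval -0.34 to 0.54, edgeR adjusted p = 0.73), and leaving out HFD replicate 3 gave 0.33, leaving out HFD replicate 1 gave -0.020.

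Slc7a11 (ENSMUSG00000027737, chr3:49892526-50443614, minus strand) encodes the subunit of the cystine importer that supplies cysteine for glutathione. Its raw counts were 4, 1 and 1 in HFD and 1, 0 and 15 in HFD+allantoin. All libraries but replicate 6 held 4 counts or fewer, and the 0 allows up to 3 counts, so no fold change is given. A stretch of 373 bases of its transcripts is near-identical to Tuba1a, Tuba1b and Tuba1c, and such counts may include reads of these tubulin genes.

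Txnrd1 (ENSMUSG00000020250, chr10:82833951-82897712, plus strand) encodes cytosolic thioredoxin reductase, the selenoenzyme that recharges thioredoxin. It was at 93.1, 68.1 and 99.4 CPM in HFD and 91.2, 116 and 103 CPM in HFD+allantoin. Replicates 5 and 6 were above every HFD library, and replicate 4 was below HFD replicates 1 and 3. Txnrd1 had a log2 fold change of 0.25 (SE 0.19, interval -0.18 to 0.68, edgeR adjusted p = 0.36).

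Srxn1 (ENSMUSG00000032802, chr2:152105516-152111376, plus strand) encodes sulfiredoxin, which repairs overoxidised peroxiredoxins. It was the gene that varied most among the HFD livers, at 30.3, 35.5 and 371 CPM, and stood at 35.7, 43.7 and 56.0 CPM in HFD+allantoin. HFD replicate 3 was 6.63 times the next highest library, while HFD replicates 1 and 2 were below all 3 allantoin libraries. In raw counts this was 4440 in HFD replicate 3 against 278 to 829 in the other libraries, so the contrast does not rest on few reads.

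The log2 fold change of Srxn1 was -1.69 (SE 0.84, interval -3.58 to 0.20, edgeR adjusted p = 0.17). Without HFD replicate 3 it was 0.46 (interval -0.040 to 0.96, adjusted p = 0.15), with the opposite sign.

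Hmox1 (ENSMUSG00000005413, chr8:75093621-75100589, plus strand) encodes heme oxygenase 1, which breaks heme down to biliverdin, iron and carbon monoxide and is also made by liver macrophages. It was at 13.8, 21.8 and 19.5 CPM in HFD and 20.5, 17.0 and 34.0 CPM in HFD+allantoin. Replicate 6 was the highest library and the other allantoin libraries lay within the HFD range. The log2 fold change was 0.38 (SE 0.28, interval -0.26 to 1.02, edgeR adjusted p = 0.36), and it was 0.033 without replicate 6.

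Macrophage markers are given beside Hmox1, although neither passed its test. The summed level of 16 markers, none at 0 in every library, was 216 to 487 CPM in HFD and 546 to 626 CPM in HFD+allantoin, highest in replicate 6, with a log2 ratio of means of 0.81 (exact permutation p = 0.1, the smallest possible, 0.28 adjusted over the 11 marker lists). Of the 16, 4 were called higher by edgeR (Adgre1, Folr2, Cd5l and Vsig4) and 0 lower. Adgre1 had the largest difference, with 2.62 to 3.75 CPM in HFD and 18.4 to 23.1 CPM in HFD+allantoin. Cd68, C1qa, Timd4 and Cd14 had log2 fold changes of -0.012 to -0.18, and the Kupffer cell marker Clec4f had 0.29 (adjusted p = 0.49). Their part in the Hmox1 value was not tested. In whole liver, a change in the number of cells of a type and a change in RNA per cell cannot be told apart.

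Nqo1 (ENSMUSG00000003849, chr8:107388225-107403206, minus strand) encodes the NADPH-dependent quinone reductase that is widely used as a readout of NRF2. It was low in all livers, at 3.38, 4.74 and 7.69 CPM in HFD and 5.94, 7.63 and 10.8 CPM in HFD+allantoin, from 31 to 160 counts. HFD replicate 3 exceeded replicates 4 and 5, so the groups overlapped. The log2 fold change was 0.61 (SE 0.36, interval -0.19 to 1.42, edgeR adjusted p = 0.24), and 0.999 (interval 0.22 to 1.78, adjusted p = 0.057) without HFD replicate 3.

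**Figure D3:**
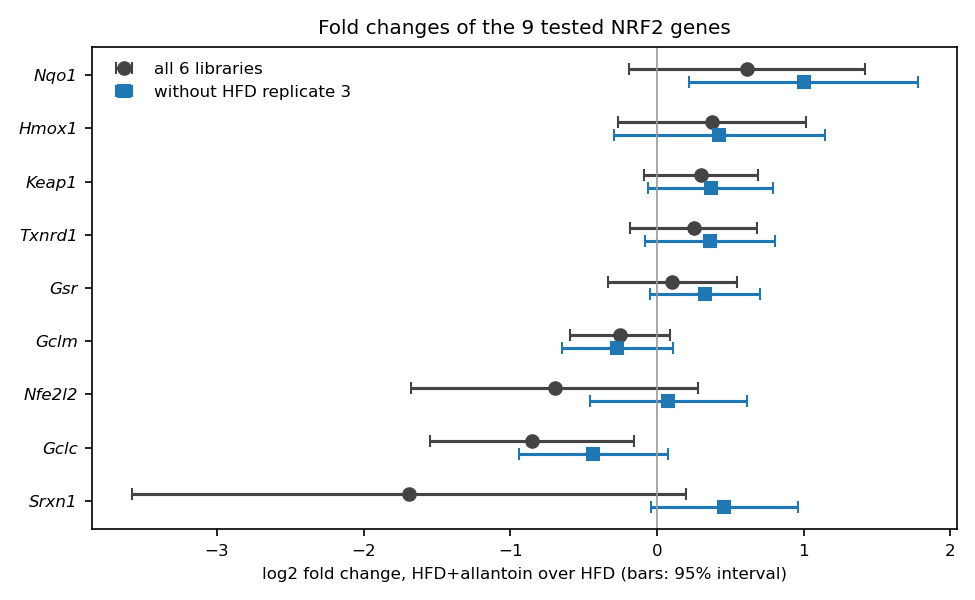
Log2 fold change of HFD+allantoin over HFD for the 9 tested genes (x axis, bars the 95% interval of the edgeR fit), with all 6 libraries (grey circles) and without HFD replicate 3 (blue squares). Srxn1 moves from -1.69 to 0.46 and Nfe2l2 from -0.70 to 0.076, and Gclc and Gclm have negative values in both fits.

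Levels can be set beside each other between genes after division by exon length. In HFD livers the order on the scale of CPM per kilobase of exon was Gclc (111 ± 51.0, SD, n = 3), Srxn1 (51.7 ± 69.3), Gclm (41.5 ± 2.18), Nfe2l2 (21.9 ± 15.9), Gsr (17.1 ± 4.26), Txnrd1 (12.3 ± 2.34), Hmox1 (10.5 ± 2.37), Keap1 (6.07 ± 0.496), Nqo1 (3.39 ± 1.42) and Slc7a11 (0.0148 ± 0.0143). The ranges of neighbours overlapped for Gclc and Srxn1, Srxn1 and Gclm, Nfe2l2 and Gsr, and Txnrd1 and Hmox1.

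In HFD+allantoin livers the per-kilobase order was Gclc (61.3 ± 8.21), Gclm (34.8 ± 2.24), Gsr (18.4 ± 0.914), Srxn1 (16.0 ± 3.62), Txnrd1 (14.6 ± 1.74), Hmox1 (13.6 ± 5.12), Nfe2l2 (13.5 ± 2.44), Keap1 (7.48 ± 1.15), Nqo1 (5.23 ± 1.59) and Slc7a11 (0.0260 ± 0.0406). The 5 genes from Gsr to Nfe2l2 each overlapped the next in this order, and Keap1 overlapped Nqo1. The glutamate-cysteine ligase genes were thus the most abundant of the 10 in these livers, except that the HFD mean of Srxn1 lay between them. HFD replicate 3 raised that mean, at 132 CPM per kilobase against 10.8 and 12.6 in HFD replicates 1 and 2.

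HFD replicate 3 held high levels of some, but not most, genes of the NRF2 system at once. It was the highest library in 4 of the 9 tested genes (Nfe2l2, Gclc, Srxn1 and Gsr), beside 16.0% of all genes. In the wider pathway lists described below it was highest in 26 of 163 tested genes, about the same share as the 2052 of all 12795. It was highest and at least 2 times the next library in 2 of 9, Srxn1 and Nfe2l2 (2.45 times), beside 1.13% of all genes. Against the mean of the other HFD libraries its level was 11.3 times for Srxn1, 3.10 times for Nfe2l2 and 2.0 times for Gclc. For Nqo1, Gsr, Txnrd1, Keap1, Hmox1 and Gclm it was 1.89, 1.50, 1.23, 1.13, 1.09 and 0.958 times. Gsr in HFD replicate 3 was 1.14 times the next highest library.

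The same library was highest and at least 2 times the next in 3 of 19 tested genes of a list of NRF2 regulators and partners. These were Bach1, a repressor that competes with NRF2 at its elements, and the small MAF partners Maff and Mafk. Bach1 stood at 127 CPM in HFD replicate 3 and 18.4 to 51.1 CPM in the other libraries, Maff at 36.7 against 3.56 to 9.58 CPM, and Mafk at 54.0 against 10.5 to 17.1 CPM. The third small MAF gene, Mafg, did not follow, with 49.4 CPM in HFD replicate 3 and 51.8 to 116 CPM elsewhere. No gene of the other 9 pathway lists met that rule.

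HFD replicate 3 also differed in markers of other cells. Its summed level of 7 cholangiocyte markers was 159 CPM, where the other libraries had 21.9 to 76.8 CPM. Most of it came from Spp1 (109.6 CPM) and Sox9 (43.6 CPM), with Krt19 at 1.92 CPM and Krt7 at 0.585 CPM. Epcam stood at 2.84 CPM (34 counts) in HFD replicate 3 and at no more than 0.592 CPM in the other libraries. Its 7 erythroid markers summed to 335 CPM, against 882 to 1343 CPM in the other libraries. The part of either in the high NRF2 genes was not tested.

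**Figure D4:**
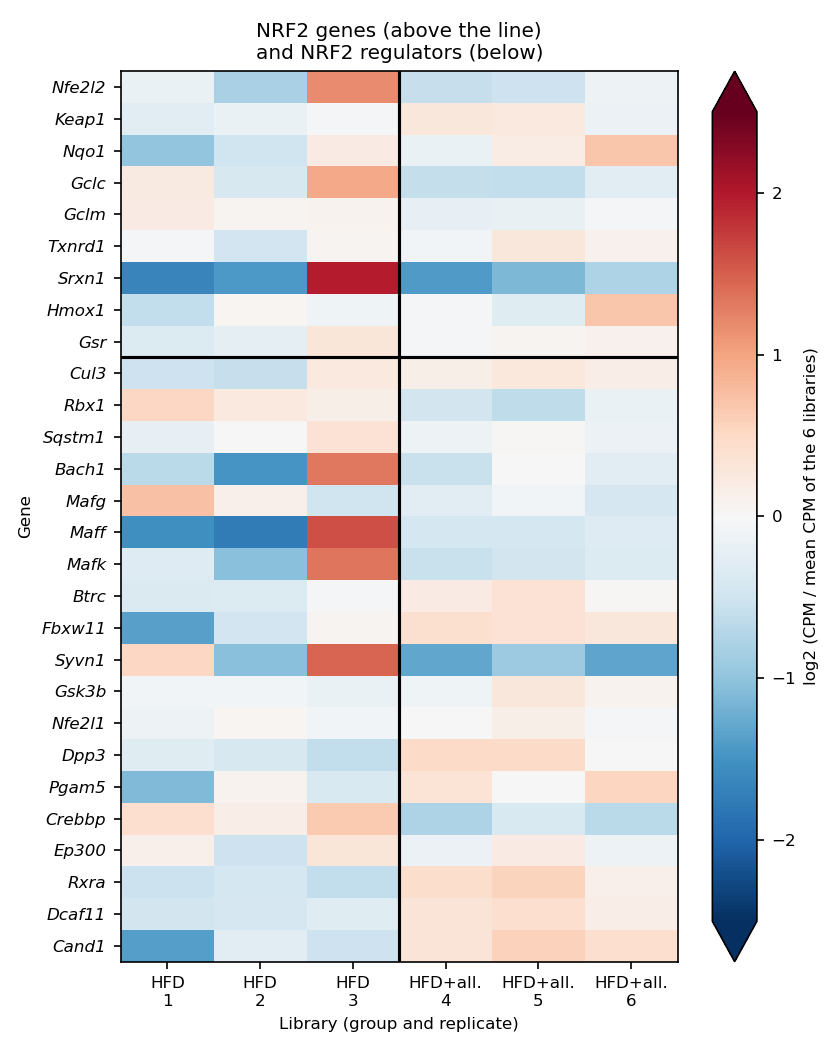
Log2 of the level in a library over the mean of the 6 libraries (colour, from blue for low to red for high) for the 9 tested NRF2 genes above the horizontal line and 19 NRF2 regulators and partners below it, with HFD libraries left of the vertical line and HFD+allantoin (HFD+all.) right of it. In the HFD 3 column Nfe2l2, Gclc, Srxn1, Bach1, Maff, Mafk and Syvn1 are all high.

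Across the 6 libraries, log2 CPM of Nfe2l2 correlated with that of Srxn1 (Pearson r = 0.93) and Gclc (r = 0.92), and Nqo1 with Gsr (r = 0.85). Keap1 ran opposite to Gclm (r = -0.93). The libraries share the split into 2 groups and the outlying HFD replicate 3, and the coefficients over 6 points describe these libraries only. The 5 genes most like Nfe2l2 over the 6 libraries were Tubb6 (r = 0.99), Zbtb11, Fpgt, Ankrd13c and Zfp217. The 5 most like Gclc were Yod1 (r = 0.99), Sfpq, Arl6ip6, Atf4, the transcription factor of the amino acid and endoplasmic reticulum stress responses, and Ptpn23. Atf4 stood at 96.7, 63.6 and 174 CPM in HFD and 46.3, 51.8 and 57.8 CPM in HFD+allantoin, with HFD replicate 3 again the highest.

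The wider NRF2 pathway was followed in 10 lists of 163 tested genes, without the 10 above. Of these, 21 were called higher and 18 lower, beside 11.3% and 13.0% of all genes, and their median log2 fold change was 0.11. Without HFD+allantoin replicate 5 the counts were 10 and 7, and without HFD replicate 3 they were 34 higher and 21 lower. The named genes below are those with the largest fold change in each list, at most 5, and of the 30 that passed, 13 did so with any single library left out. With scaling by library size only, 9 of the 30 were not called, all of them among the lower genes. All p-values are edgeR's, adjusted over all tested genes.

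Among the NRF2 regulators and partners, 4 of 19 were higher and 3 lower. The retinoid receptor Rxra, which can bind and repress NRF2, rose from 187 to 212 CPM in HFD to 313 to 424 CPM in HFD+allantoin (log2 fold change 0.92, adjusted p = 0.0079). Dpp3, which competes with NRF2 for KEAP1, rose by 0.77 on the log2 scale (adjusted p = 0.019), and Cand1, an exchange factor of cullin ligases, by 1.10 (adjusted p = 0.017). Crebbp, an acetyltransferase that binds NRF2, fell from 20.6 to 29.1 CPM to 10.8 to 14.1 CPM (-1.02, adjusted p = 0.0086). Syvn1, the ubiquitin ligase HRD1 that can degrade NRF2, was lower as well (-1.80, adjusted p = 0.031), with HFD values of 241, 82.0 and 461 CPM and HFD+allantoin values of 68.0, 89.0 and 67.6 CPM, and the call was lost without HFD replicate 1 or any of the allantoin libraries.

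The glutathione system beyond the genes above had 0 higher and 2 lower of 22. Gss, glutathione synthetase, which acts after Gclc, was at 77.6 to 111 CPM in HFD and 45.4 to 56.1 CPM in HFD+allantoin (-0.90, adjusted p = 0.011), with exons that overlap Acss2 on the other strand. Ggct, a gamma-glutamylcyclotransferase, was lower (-0.74, adjusted p = 0.038), and lost its call when any library but HFD replicate 1 was left out (adjusted p = 0.067 without HFD replicate 2). In the thioredoxin, peroxiredoxin and methionine sulfoxide list, 1 of 20 was higher and 2 lower. Txn1, the substrate of Txnrd1, fell from 243 to 323 CPM to 124 to 161 CPM (-0.99, adjusted p = 0.0080), and of the fits with 1 library left out only that without HFD+allantoin replicate 5 lost its call. Prdx5 fell by 1.09 on the log2 scale (adjusted p = 0.0040), and Sesn3, a sestrin, rose by 1.18 (adjusted p = 0.0044). Trmt112 on the opposite strand overlaps 19.1% of the Prdx5 exons.

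The glutathione S-transferases had 2 higher and 2 lower of 21. Gsta3 rose from 330.5 to 585 CPM to 1137 to 1399.8 CPM (1.38, adjusted p = 0.0055) and Gstt3 by 1.02 (adjusted p = 0.042). Gstp1 (-1.80, adjusted p = 0.0084) and Gstp2 (-4.26, adjusted p = 0.0040) were lower, and since their transcripts are near-identical the counts may be split unevenly between them. The NADPH supply list had 0 of 11 called. Its most abundant genes Aldh1l1 (0.54, adjusted p = 0.13) and Idh1 (0.19, adjusted p = 0.44) did not pass. Without HFD replicate 2, Aldh1l1 had 0.79 and passed (adjusted p = 0.039).

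Of 13 genes of heme breakdown, heme and iron handling, 2 were higher and 1 lower. These were Alas1, the first enzyme of heme synthesis (0.91, adjusted p = 0.037), Fech, the last (0.77, adjusted p = 0.0082), and the hemoglobin-binding haptoglobin Hp (-0.98, adjusted p = 0.036). Without HFD replicate 2 the calls of Alas1 (adjusted p = 0.083) and Hp (adjusted p = 0.058) were lost. The 28 other NRF2 target genes had 8 higher and 4 lower, beside 11.3% and 13.0% of all genes. The metallothioneins Mt1 and Mt2 were lowest relative to HFD: Mt1 was at 455, 105 and 671 CPM in HFD and 34.5, 22.5 and 72.3 CPM in HFD+allantoin (-3.25, adjusted p = 0.010), and Mt2 had -3.58 (adjusted p = 0.011). Ces1g, a carboxylesterase, rose by 1.56 (adjusted p = 0.0032) and the glycine transporter Slc6a9 by 1.89 (adjusted p = 0.0051). On the opposite strand, Gm45774 overlaps 73.5% of the Mt2 exons and Ccdc24 overlaps 27.8% of the Slc6a9 exons. Reads of these genes cannot be told apart there if counting ignored the strand. Ugt1a6a, whose exons are shared across the Ugt1a locus, was lower (-1.86, adjusted p = 0.024).

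Of 6 enzymes and carriers in the superoxide and hydrogen peroxide list, 1 was higher and 2 lower. Sod1, cytosolic superoxide dismutase, fell by 0.75 on the log2 scale (adjusted p = 0.019) and its copper chaperone Ccs by 0.64 (adjusted p = 0.028, and 0.065 without HFD replicate 2). Selenop, the selenium carrier, rose by 1.41 (adjusted p = 0.018) and also stands in the list of selenoproteins, of which 2 of 20 were higher and 2 lower. There Selenoo rose by 1.22 (adjusted p = 0.0032), Selenok fell by 1.49 (adjusted p = 0.0019) and Selenow by 0.87 (adjusted p = 0.0066). On the opposite strand, Tubgcp6 overlaps 26.7% of the Selenoo exons and Ccdc152 overlaps 15.4% of the Selenop exons. Of 12 oxidant-producing enzymes, 2 were higher, Xdh, which makes uric acid (0.82, adjusted p = 0.013), and the phagocyte oxidase subunit Cybb (0.95, adjusted p = 0.015), and 0 were lower. Cybb is made by macrophages, of whose 16 markers 4 were called higher, as given beside Hmox1.

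**Figure D5:**
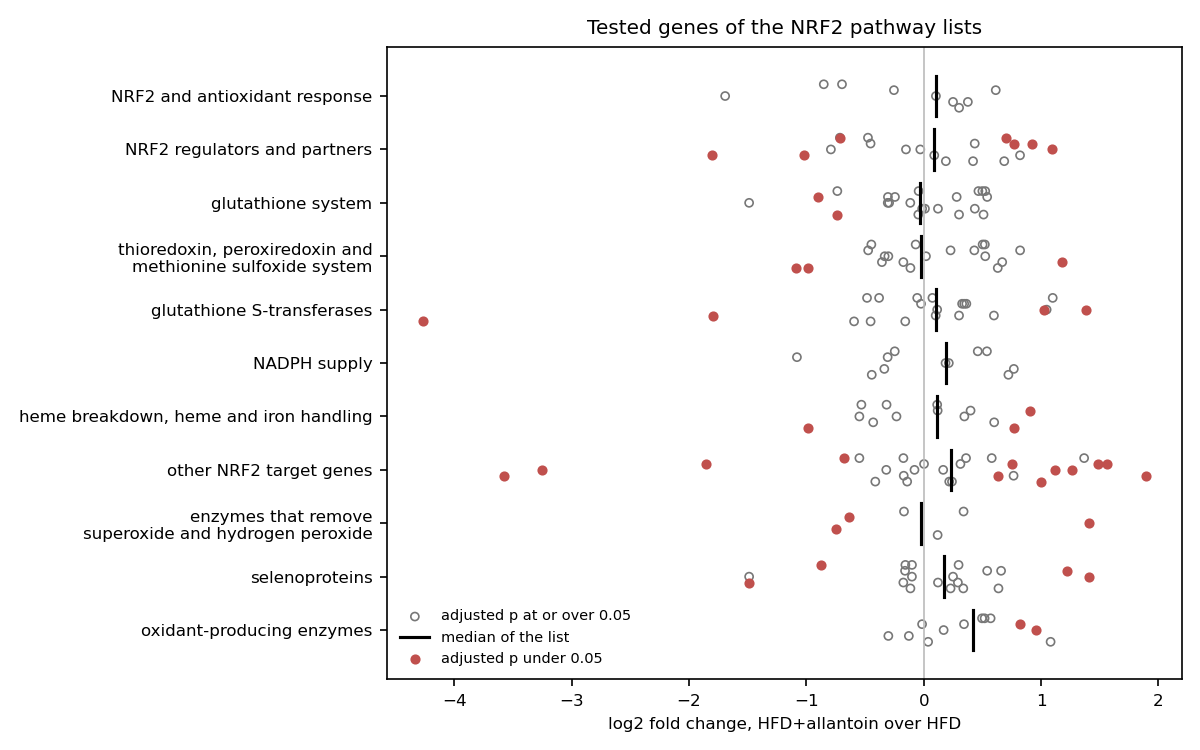
Log2 fold change of HFD+allantoin over HFD (x axis) for each tested gene of the NRF2 genes (top row) and of the 10 pathway lists, with filled red circles for genes past the adjusted p threshold of 0.05, open circles for the others and a black bar at the median of each list. No gene of the top row is filled, and the medians of the lists lie between -0.028 (glutathione system) and 0.42 (oxidant-producing enzymes).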

How the data were processed

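The deposited table holds raw read counts per gene, which per the labels and the methods came from liver RNA, a SMARTER mRNA-Seq kit and filtered Illumina reads. The authors' aligner and counting tool are not given in the sources used here. Their processing notes name GRCm38 and mm10. Entries without an Ensembl identifier (429 of 54961) were left out, and 54495 of the rest were found in GENCODE M21.

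Counts were tested with edgeR 4.0.16 (R 4.3.3): filterByExpr, TMM, quasi-likelihood F test, group as the only term, Benjamini-Hochberg adjustment over 12795 genes, log CPM with a prior count of 2. The procedure was tested on simulated data. These held neither the mitochondrial difference between the groups nor an outlying library, so the test does not cover either. DESeq2 1.42.0, limma-voom (limma 3.58.1) and other scalings, filters and omitted libraries were alternatives. Ratios and marker sums used exact permutation tests (scipy 1.17.1), two-sided. Near-identical transcripts (at least 95% over 200 bases) were found with BLAST 2.17.0.

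The 10 genes, the 10 pathway lists and the 11 marker lists were chosen with earlier results of these data known. Named list genes had at least 1 CPM, an adjusted p under 0.05 and the largest fold changes, at most 5 per list, or were the 2 most abundant of a list with none called. Genes most like Nfe2l2 and Gclc were ranked by Pearson r.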

Additional observations from a re-analysis of the deposited data

How the results depend on the processing

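Fold changes of the 9 tested genes were computed under 16 alternatives each; 143 values had an adjusted p (DESeq2 gave none for Srxn1), and 131 of these kept their direction and their side of the threshold. Leaving out single libraries gave -1.04 to 0.076 for Nfe2l2, -2.18 to 0.46 for Srxn1, -0.020 to 0.33 for Gsr and -1.12 to -0.43 for Gclc. The positive Nfe2l2 and Srxn1 values came without HFD replicate 3, and the negative Gsr value without HFD replicate 1. Scaling by library size only called 2 of the 9 higher, Keap1 (0.71) and Txnrd1 (0.66), and turned Gclm to 0.17. Without a filter on low counts, 3 were called lower, Nfe2l2 (-0.66), Gclc (-0.81) and Srxn1 (-1.66, adjusted p = 5.17e-12). In that fit the SE was 0.22 for each of these genes, where the main fit gave 0.43, 0.31 and 0.84. Keap1, Gclm, Txnrd1 and Gsr also had an SE of 0.21 to 0.22 in it. These calls thus take little account of the spread of each gene between libraries. DESeq2 called 1 lower (Gclc, -0.85), removal of the length and GC trend 1 (Gclm, -0.50), and the fits without 1 library 0 to 1 lower and 0 higher. The causes were not tested. A robust quasi-likelihood fit, chosen after seeing the data, altered no call of the 9.

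Over all genes, library size only gave 3162 higher and 674 lower, an adjusted p under 0.01 gave 443 and 573, and omitting 1 library 460 to 1773 and 564 to 2008, the lowest without HFD+allantoin replicate 5. For the 163 pathway genes the counts were 46 higher and 7 lower with library size only, 33 higher without a filter, 10 and 8 at an adjusted p under 0.01, and 10 to 34 and 7 to 21 with 1 library left out. Of the 30 named pathway genes that passed, all kept their direction in these fits and with library size only. Library size only left 21 of the 30 called; the 9 lost were lower genes, Syvn1, Crebbp, Gss, Ggct, Txn1, Hp, Sod1, Ccs and Selenow. The call was lost by 16 without HFD+allantoin replicate 5, 12 without replicate 4, 11 without replicate 6, 4 without HFD replicate 1, 4 without HFD replicate 2 and 1 without HFD replicate 3. Removing the length and GC trend left 26 of the 30 called; Selenow, Ccs, Hp and Alas1 were not.

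Library size only reversed the summed markers of hepatocytes (0.22), lymphocytes (0.35), adipocytes (0.25) and pancreatic acinar cells (0.18). Omitting 1 library gave -1.78 to 0.070 for cholangiocytes, -0.20 to 0.088 for lymphocytes, -0.27 to 0.014 for adipocytes and -0.40 to 0.33 for erythroid markers. No paired analysis was possible because the groups share no replicate number. With 3 libraries per group, intervals of single genes were wide, and Nqo1 and Slc7a11 are further limited by counts.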

Other observations

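Other marker lists gave these values of summed CPM in HFD and HFD+allantoin livers. Stellate cell markers were at 153 to 275 and 318 to 380 CPM (log2 ratio of means 0.64) and neutrophil markers at 12.1 to 19.6 and 4.14 to 10.1 CPM (-1.32), with no overlap of the groups and an exact permutation p = 0.1, the smallest possible, for each (0.28 adjusted over the 11 lists). Skeletal muscle markers, 3 of 6 at 0 in every library, were at 0.669 to 6.02 and 0.27 to 0.592 CPM (-2.72, exact p = 0.1, 0.28 adjusted). This sum rested on few reads: Mylpf had 4 to 12 counts, and Acta1 had 46 in HFD replicate 2 and at most 1 elsewhere. With 1 library left out the value was -3.18 to -1.35. Sinusoidal endothelial (0.32, exact p = 0.5), cholangiocyte (-0.95, exact p = 0.5), lymphocyte (-0.04, exact p = 1), adipocyte (-0.15, exact p = 0.6), erythroid (0.00, exact p = 1) and pancreatic acinar markers (-0.20, exact p = 0.7) overlapped between the groups. Car3 (2473 to 4140 CPM) made up most of the adipocyte sum. That sum was highest in HFD replicate 3 and not in HFD replicate 2, which alone held Adipoq. Cela1 (12.4 to 26.2 CPM) made up most of the pancreatic acinar sum.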
